A study of Mus musculus with 15 samples.

Results

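Neural stem cells from the subventricular zone of mice were compared between 12 h of differentiation and the undifferentiated state, on 10 of the 15 Affymetrix arrays of the series. The 5 arrays titled as differentiated for 12 h were contrasted with the 5 titled as undifferentiated, for all genes that passed a filter on dim values. The fit took all 15 arrays, so the other arrays of the series entered the filter and the estimate of the spread. The cells came from female C57Bl6/J mice of 6 months and were used at passages 5 to 7 as neurospheres, floating clusters that had been dissociated and replated to enrich for sphere-forming cells. The undifferentiated cells were kept with growth factors. The 12 h cells were without growth factors, on poly-D-lysine, a coating to which cells attach, in 5% serum. Loss of growth factors, serum and attachment came together, so their effects cannot be told apart. Separate cultures or animals are not named for the 5 samples of a group. The p-values therefore reflect only the spread among samples within the groups of the series, which may be technical. In RNA from whole cultures, fewer cells of a type and less RNA per cell cannot be told apart.

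The titles and the array file names carry different array codes for 13 of the 15 samples, and 8 samples would be in another group by the file codes; groups here follow the titles, which the sample sources match. Grouped by file codes, limma called 0 genes at 12 h, with 81 at an unadjusted p under 0.05, so every result below rests on the titles. Title codes end in 1 of 3 suffixes, named A, B and C here: in both groups replicates 1 and 2 carry A, 3 and 4 carry B, and 5 carries C. The 12 h replicates 3 and 4 stood closer together than any other pair of the series, with an SD of 0.150 between them on the log2 scale over genes against 0.277 for the next pair. The 3'/5' signal ratio of beta-actin, a measure of RNA integrity that also depends on the transcripts present, was 1.95 ± 0.238 in undifferentiated and 2.36 ± 0.148 in 12 h cells (SD, n = 5; two-sided exact permutation p = 0.0159, or 0.0794 after adjustment over 5 quality measures), and its part in the results was not tested beyond the covariate fit given with the counts.

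Stem cells of this region line the lateral ventricles and can form neurons, astrocytes and oligodendrocytes. In culture, EGF and FGF act through receptor tyrosine kinases and the ERK kinase cascade, which keeps D cyclins and E2F factors active and the cells in cycle; ERK also induces its own inhibitors, such as the phosphatase Dusp6 and the Sprouty proteins. Serum carries lipids and proteins that act on actin and the transcription factor SRF, and it carries BMP activity, which induces the Id inhibitors of bHLH factors and favours astrocytes.

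At 12 h, 261 genes were higher and 361 lower among 7909 tested (limma, adjusted p under 0.05), 3.3% and 4.56% of the genes tested and 7.86% in all. The fall of DNA replication, mitosis and DNA repair genes was the broadest change, beside rises of some contractile, BMP-responsive, astrocyte and adhesion genes. The median difference was 0.76 on the log2 scale among the higher genes and -0.87 among the lower, and 69 and 145 of them differed at least 2-fold. The 5 arrays of a group did not overlap with those of the other for 8.16% of tested genes, 3.41% with 12 h higher and 4.74% with 12 h lower. Of the 622 called genes, 616 had the same direction within each of the suffixes A, B and C. All 622 were called with the suffix as a block in the fit, which called 632 genes higher (7.99%) and 844 lower (10.7%). Both counts cover genes chosen on these same arrays, so they are largely built in and are no separate replication. Agreement in direction was not counted over all tested genes. With 12 h replicates 3 and 4 averaged, 319 genes were higher and 569 lower. Leaving out single arrays gave between 69 and 356 higher genes and between 103 and 649 lower ones. The lowest counts came without 12 h replicate 2 (69 higher, 105 lower) and without 12 h replicate 5 (106 higher, 103 lower). Counts also fell to 99 and 131 without undifferentiated replicate 5, to 112 and 136 without undifferentiated replicate 4 and to 147 and 189 without undifferentiated replicate 2. Without 12 h replicate 1, 240 genes were higher and 222 lower, and without 12 h replicate 3 the counts were 356 and 649. Without both arrays of suffix C, 35 genes were higher and 35 lower, and with the beta-actin ratio as a covariate 120 were higher and 50 lower. The calls of 67 higher and 92 lower genes held with each of the 10 arrays left out in turn. Of these, 21 higher and 19 lower also held in 4 further fits. Those were without suffix C, with the actin covariate, and with 12 h replicates 3 and 4 averaged or both left out. A call said below to hold with each array left out need not hold in the further fits.

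**Figure D1:**
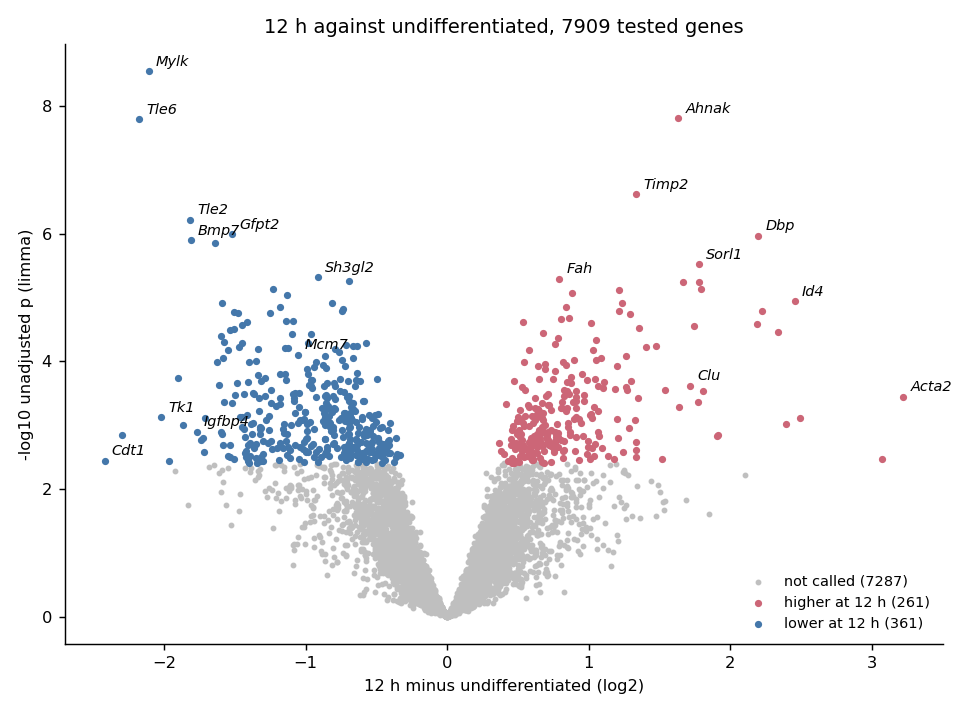
Each point is 1 of the 7909 tested genes, with its log2 difference (12 h minus undifferentiated) on the horizontal axis and -log10 of its unadjusted limma p on the vertical axis; red and blue points are the 261 higher and 361 lower genes. Acta2 lies farthest right at 3.22 and Cdt1 farthest left at -2.42, while Mylk, Ahnak and Tle6 lie highest.

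Mylk, Tle6 and Ahnak had the smallest p-values. Levels are given as log2 of the deposited values, whose zero point is unknown, so only differences between arrays carry meaning. Ahnak, a giant scaffold protein at the cell membrane, was at -0.44, -0.08, 0.19, -0.34 and -0.14 in undifferentiated replicates 1 to 5 and at 1.27, 1.45, 1.67, 1.63 and 1.33 in 12 h replicates 1 to 5. All 12 h arrays lay above all undifferentiated ones, and Ahnak rose 3.10-fold (log2 1.63 ± 0.16, SE of the limma fit, n = 5 per group; adjusted p = 4.23e-05). Every undifferentiated level of Ahnak was under the filter on dim genes (log2 0.512), so Ahnak was tested only through its levels on other arrays. Its fold therefore starts from dim values. Mylk, the kinase that phosphorylates myosin light chain, was at 2.85, 3.07, 2.61, 3.48 and 3.49 in undifferentiated cells and at 0.71, 0.90, 1.37, 1.27 and 0.71 at 12 h. It fell by 2.11 ± 0.18 (limma adjusted p = 2.25e-05), with no overlap, while 6 of the 26 tested genes of the contractile list to which it belongs rose. The corepressor Tle6 was at 3.35, 3.39, 2.68, 4.10 and 3.81 in undifferentiated cells against 1.51, 0.89, 1.46, 1.44 and 1.16 at 12 h, a fall of 2.18 ± 0.21 (limma adjusted p = 4.23e-05). Dbp, a clock output transcription factor, was at 2.93, 2.67, 2.58, 2.25 and 3.03 in undifferentiated cells and between 4.52 and 5.19 at 12 h, and rose 4.59-fold (limma adjusted p = 0.00121). Calls of these 4 genes held with each array left out, and their groups did not overlap.

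**Figure D2:**
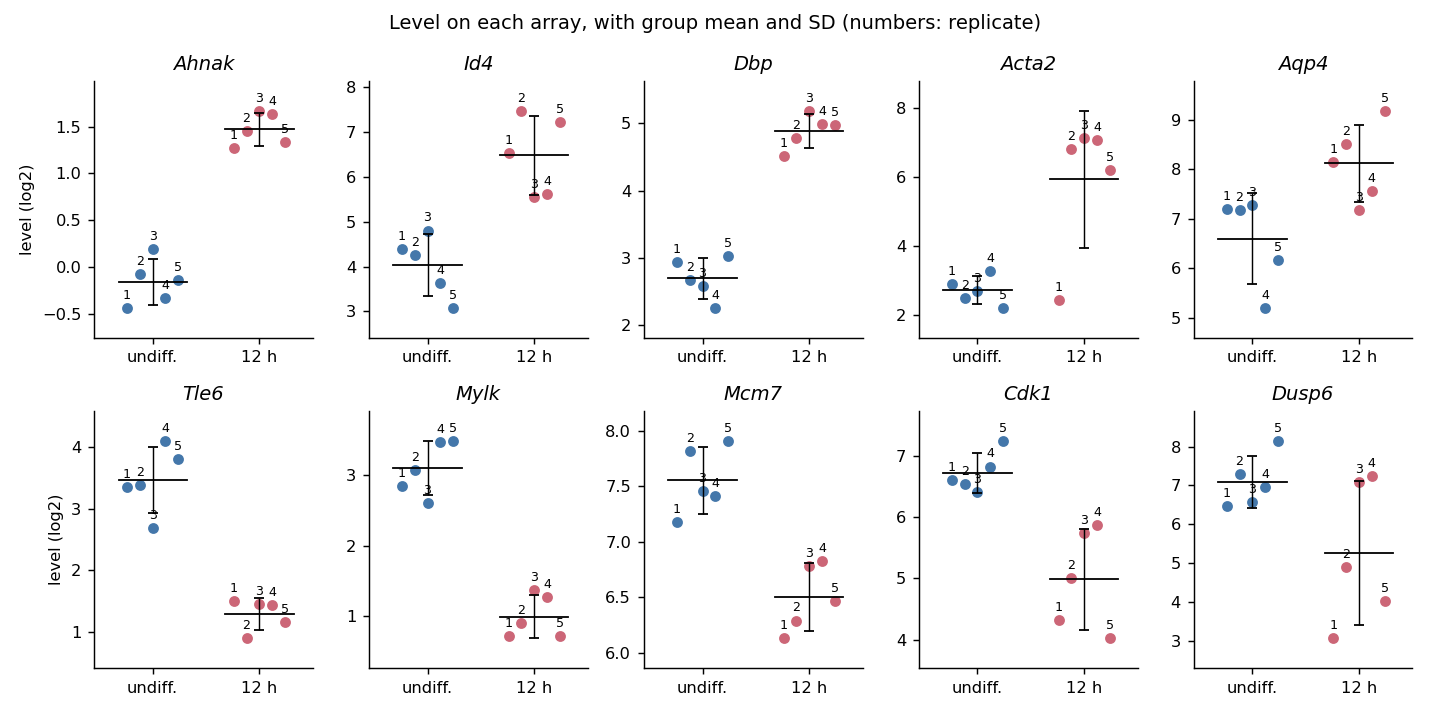
Log2 levels of 10 genes on each array, with the replicate number beside each point; horizontal lines are group means and vertical bars SDs (n = 5). The 12 h arrays of Ahnak, Id4, Dbp, Tle6, Mylk, Mcm7 and Cdk1 are apart from the undifferentiated ones, whereas 12 h replicate 1 of Acta2 (2.41) and 12 h replicates 3 and 4 of Dusp6 (7.08 and 7.23) lie among the undifferentiated arrays.

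Among the 12 largest rises with no overlap between groups, Id4, an inhibitor of bHLH transcription factors, rose 5.48-fold. Its levels were 4.40, 4.26, 4.80, 3.62 and 3.07 in undifferentiated cells and 6.54, 7.48, 5.55, 5.63 and 7.23 at 12 h. The 12 h replicates 3 and 4 were its lowest 12 h arrays. Retreg1, a receptor for autophagy of the endoplasmic reticulum, rose 4.66-fold, and its 12 h levels of 2.97 and 3.23 in replicates 3 and 4 were only just above undifferentiated replicate 3 at 2.87. The sorting receptor Sorl1 rose 3.43-fold, the tetraspanin Tspan17 3.43-fold and Dhrs1, a short-chain dehydrogenase, 3.17-fold. Clu, the secreted chaperone clusterin, rose 3.28-fold from 6.31, 6.15, 6.50, 4.55 and 5.73 to 7.85, 7.40, 7.12 and 7.45 in 12 h replicates 1 to 4, and 12 h replicate 5 was higher still. The matrix proteoglycan Ogn rose 3.46-fold, the granule protein Scg2 3.51-fold and Islr, a cell surface leucine-rich repeat protein, 3.35-fold. For Ogn and Scg2, as for Ahnak, every undifferentiated level was under the filter on dim genes, so their folds start from dim values. Fbxo2, a glycoprotein-binding subunit of ubiquitin ligases, rose 3.75-fold. Its call was lost without undifferentiated replicate 4 or 5 or 12 h replicate 2 or 5 (limma adjusted p up to 0.0875), and the other calls of this group held with each array left out.

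The 12 largest falls with no overlap held cell cycle genes and genes of signalling. Tle2, a Groucho corepressor like Tle6, fell by 1.82 ± 0.23, from 1.93, 3.02, 2.01, 3.30 and 2.78 to 1.07, 0.46, 1.02, 0.90 and 0.50 (limma adjusted p = 0.000953). Bmp7, a secreted BMP ligand, fell by 1.81 ± 0.24, from 2.77, 2.87, 3.04, 3.48 and 3.06 to 0.93, 0.71, 1.98, 1.85 and 0.71 (limma adjusted p = 0.00124). Both calls held with each array left out. Igfbp4, a secreted binder of insulin-like growth factors, fell by 1.77 ± 0.45 (limma adjusted p = 0.029). Its lowest array was 12 h replicate 5 at 2.94, below the other 12 h arrays at 4.72 to 5.28, and the call was lost in 6 of 10 fits with an array left out, among them the fit without 12 h replicate 5 (adjusted p up to 0.0687). The other members of this group, Cdt1, Tk1, Mcm3, Pimreg, Cdk1, Rrm2, Lig1, Tle6 and Mylk, serve DNA synthesis or division, apart from Tle6 and Mylk.

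**Figure D3:**
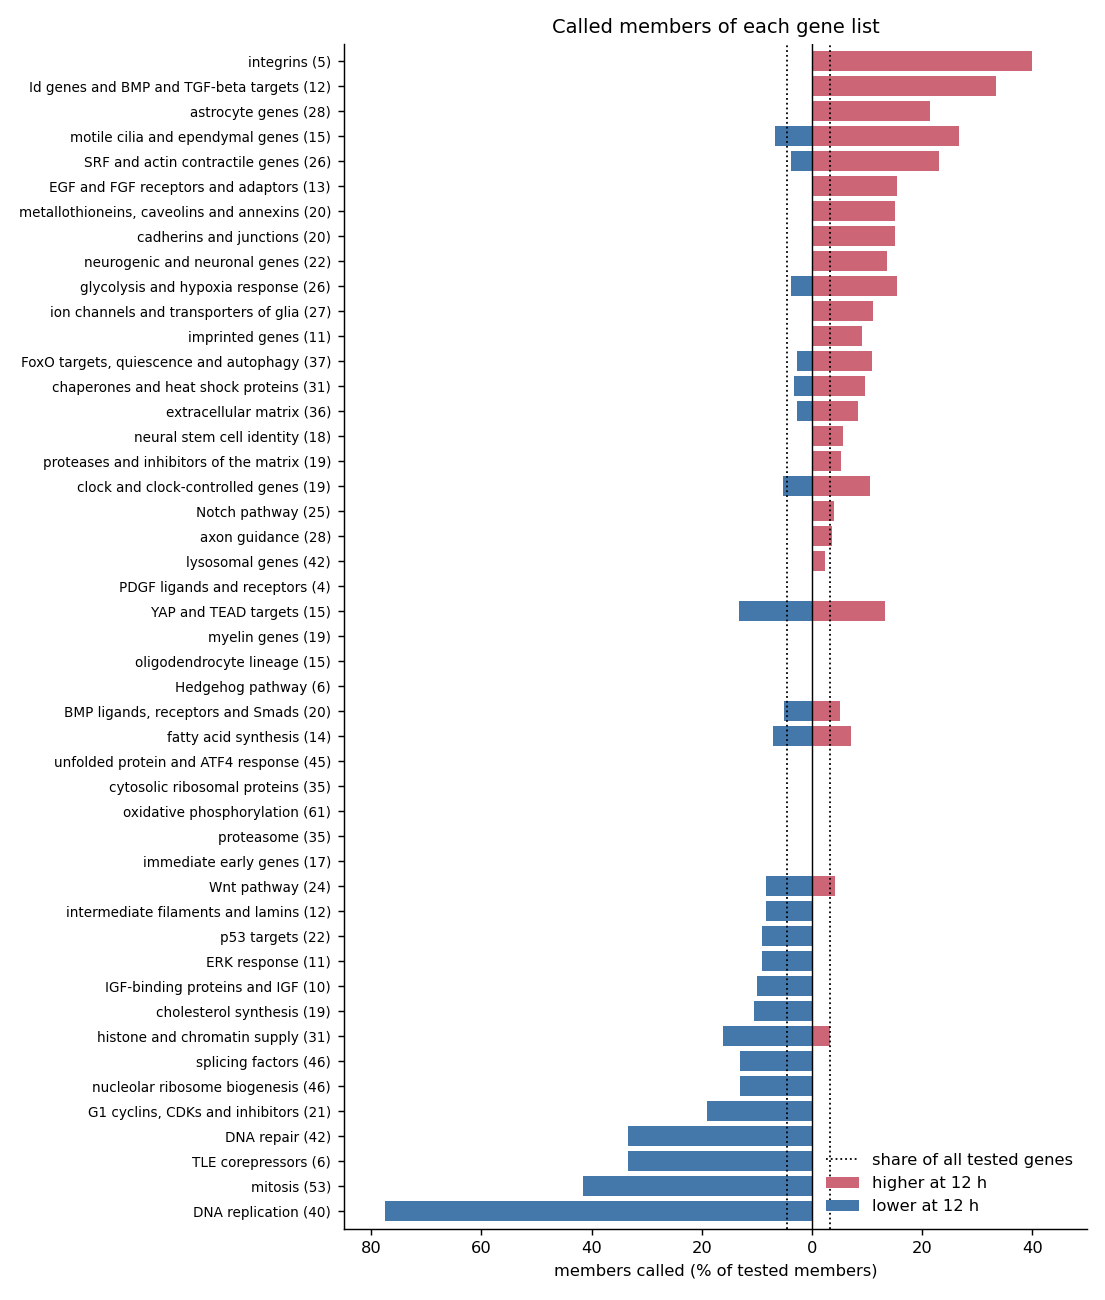
Percent of the tested members of each gene list that were called higher (red, to the right) or lower (blue, to the left), with the number of tested members in brackets and dotted lines at 3.3% and 4.56%, the shares over all tested genes. DNA replication, mitosis and DNA repair reach farthest to the left, together with the short TLE list, and integrins, Id genes and BMP targets, cilia, contractile and astrocyte genes farthest to the right.

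DNA replication genes fell in each of the 7 roles into which the list was divided. Of 40 tested members, 31 fell and none rose, against 4.56% of all tested genes, and the median difference was -1.31 on the log2 scale against 0.0045 over all tested genes. Origin licensing, which loads the Mcm2 to Mcm7 helicase on DNA, had 6 of 10 members lower, with a median of -1.56. Helicase activation (Gins1, Gins4, Cdc45, Mcm10) had 4 of 4 lower. Polymerases and primase had 6 of 8 lower, the sliding clamp, its loader and single-strand binding proteins 7 of 8, the joining of Okazaki fragments 2 of 2, nucleotide supply 5 of 5 and chromatin behind the fork 1 of 3, where Uhrf1 and Slbp did not pass. The smallest p-values were those of Fen1, which trims Okazaki fragments (fall of 1.09 ± 0.19, limma adjusted p = 0.00484), Gins4 (0.66 ± 0.12), Mcm7 (1.05 ± 0.20), Gins1 (1.58 ± 0.31) and Prim2, the large primase subunit (0.88 ± 0.17). Those 5 calls and that of the clamp Pcna (1.24 ± 0.27) held with each array left out.

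The size of the fall differed between 12 h arrays. Cdt1, which licenses origins, was at 4.82, 5.38, 5.53, 5.18 and 6.02 in undifferentiated cells and at 0.24, 2.51, 4.79, 4.70 and 2.60 in 12 h replicates 1 to 5. Mcm3, a helicase subunit, was at 4.68, 4.85, 5.19, 5.04 and 4.88 and at 1.20, 2.51, 4.55, 4.38 and 2.17. In both genes replicates 3 and 4 were nearest to the undifferentiated arrays, replicate 1 was lowest, and the groups did not overlap. Tk1, thymidine kinase, was at 4.09, 4.25, 3.97, 4.55 and 4.81 against 0.91, 2.23, 3.35, 3.39 and 1.70, with replicate 1 lowest and replicates 3 and 4 highest at 12 h. The mean of the list, relative to undifferentiated cells, was -2.31, -1.45, -0.49, -0.54 and -1.59 in 12 h replicates 1 to 5, against -0.30 to 0.21 in undifferentiated arrays, so the groups did not overlap. Its median difference was -1.71 within suffix A, -0.62 within B and -1.87 within C, and 39 of 40 members were called with the suffix as a block.

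With 12 h replicates 3 and 4 averaged, 39 replication members were called lower, and with both left out 40. The number fell to 9 without 12 h replicate 2, to 9 without 12 h replicate 5 and to 18 without 12 h replicate 1. It was 0 without the arrays of suffix C and 7 with the actin ratio as a covariate. Cdt1 and Mcm3 kept their calls only without 12 h replicate 3 or 4 (limma adjusted p up to 0.107 and 0.121 otherwise). Tk1 and Lig1, the ligase that joins Okazaki fragments (fall of 1.71 ± 0.41), lost theirs without undifferentiated replicate 4 or 5 or 12 h replicate 2 or 5 (adjusted p up to 0.066 for both), and Rrm2, a ribonucleotide reductase subunit (fall of 1.73 ± 0.46), in 6 of 10 such fits (adjusted p up to 0.0815). The helicase subunits Mcm5, Mcm2 and Mcm6 had differences of -1.92 ± 0.60, -1.61 ± 0.50 and -1.58 ± 0.52 and did not pass (limma adjusted p = 0.0582, 0.0607 and 0.0701). With the suffix as a block all 3 passed (adjusted p = 0.0023, 0.00174 and 0.00729).

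**Figure D4:**
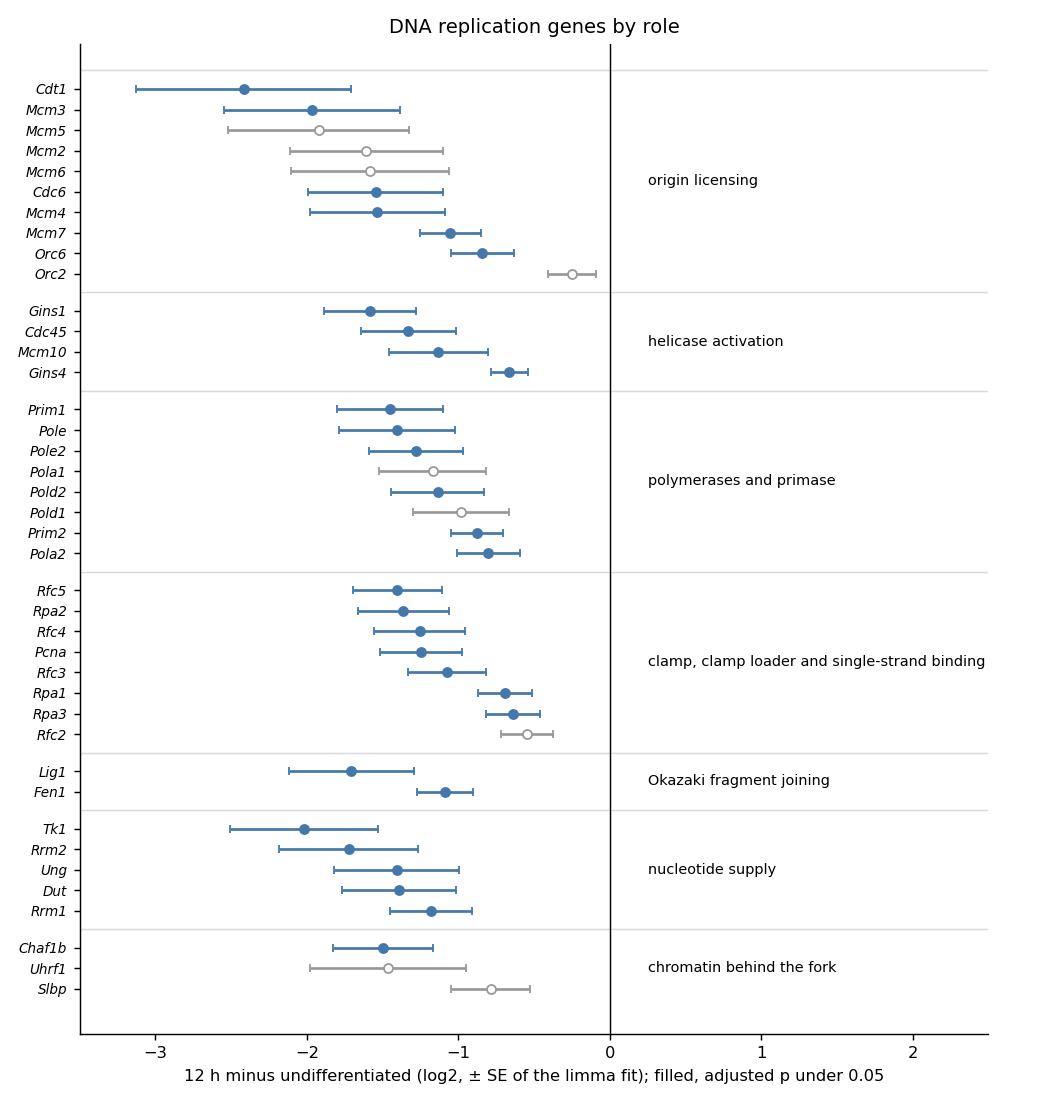
Log2 difference (12 h minus undifferentiated) of the 40 tested DNA replication genes grouped by role, with bars for the SE of the limma fit; filled blue points have an adjusted p under 0.05. All 40 points lie left of 0, from Cdt1 at -2.42 to Orc2 at -0.25, and 31 are filled.

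Mitosis genes were lower as a group, with wider spread. Of 53 tested members 22 fell (41.5%, against 4.56% of all tested genes) and none rose, with a median difference of -1.21. Groups did not overlap for 33 of 53, against 4.74% of all tested genes with 12 h lower. Cenph, a kinetochore protein, fell by 1.41 ± 0.24 (limma adjusted p = 0.00484), the spindle checkpoint protein Bub3 by 0.58 ± 0.11, the centriole kinase Plk4 by 1.62 ± 0.32 and the condensin subunit Smc2 by 1.37 ± 0.30, each held with every array left out. Ncaph, another condensin subunit, fell by 1.52 ± 0.35 and lost its call without undifferentiated replicate 5 or 12 h replicate 5 (adjusted p up to 0.0553). Cdk1, the kinase that drives entry into mitosis, was at 6.61, 6.54, 6.42, 6.83 and 7.25 in undifferentiated cells and at 4.32, 5.00, 5.74, 5.87 and 4.02 at 12 h. Its fall of 1.74 ± 0.46 (limma adjusted p = 0.0329) was called in 3 of 10 fits with an array left out (adjusted p up to 0.0927). Mki67, the proliferation marker Ki-67, had groups that did not overlap, a difference of -1.12 ± 0.39 and a limma adjusted p of 0.0832, or 0.0239 with the suffix as a block.

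The list mean of mitosis genes was -1.42, -1.18, -0.55, -0.61 and -1.93 in 12 h replicates 1 to 5, lowest in replicate 5 where the replication list was lowest in replicate 1. Pimreg, a mitotic regulator, was among the largest falls (1.90 ± 0.40, limma adjusted p = 0.0132), with 12 h levels of 2.55, 2.74, 3.54, 3.39 and 1.91 against 4.36 to 5.24. The number of mitosis members called was 50 with the suffix as a block, 32 with 12 h replicates 3 and 4 averaged, 5 without 12 h replicate 2, 4 without 12 h replicate 5 and 7 without 12 h replicate 1. It was 1 without the arrays of suffix C and 1 with the actin ratio as a covariate.

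Promoters of these genes are shown because replication and mitosis genes are known to be driven from different short motifs. Sequences come from RefSeq, build GRCm38.p6, and each covers the 250 bases before an annotated start, 5' to 3' on the gene's strand. The 4 genes were chosen after their values were seen, among called members with a match. The Mcm7 window is chr5:138171884-138172133 on the minus strand and the Cdc6 window chr11:98907901-98908150 on the plus strand, with capitals for the E2F motif. Cdc6 loads the Mcm helicase and fell by 1.55 ± 0.45 (limma adjusted p = 0.0438). The Cdk1 window is chr10:69352913-69353162 on the minus strand and the Prc1 window chr7:80294226-80294475 on the plus strand, with capitals for the cell cycle homology region, CHR. Only the CHR is marked in them, and the Cdk1 window also holds a match to the E2F motif, TTTCGCGC, left in lower case. Prc1 bundles microtubules of the central spindle and fell by 1.34 ± 0.40 (limma adjusted p = 0.0494).
Mcm7: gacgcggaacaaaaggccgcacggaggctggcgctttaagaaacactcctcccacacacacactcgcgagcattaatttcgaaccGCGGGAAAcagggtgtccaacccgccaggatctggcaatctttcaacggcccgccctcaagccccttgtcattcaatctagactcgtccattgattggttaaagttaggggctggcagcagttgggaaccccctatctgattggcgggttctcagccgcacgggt
Cdc6: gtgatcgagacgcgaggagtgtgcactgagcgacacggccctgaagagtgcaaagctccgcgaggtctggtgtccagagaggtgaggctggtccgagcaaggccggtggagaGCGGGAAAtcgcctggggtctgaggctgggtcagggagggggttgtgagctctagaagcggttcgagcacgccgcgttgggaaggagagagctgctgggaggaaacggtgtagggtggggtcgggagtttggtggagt
Cdk1: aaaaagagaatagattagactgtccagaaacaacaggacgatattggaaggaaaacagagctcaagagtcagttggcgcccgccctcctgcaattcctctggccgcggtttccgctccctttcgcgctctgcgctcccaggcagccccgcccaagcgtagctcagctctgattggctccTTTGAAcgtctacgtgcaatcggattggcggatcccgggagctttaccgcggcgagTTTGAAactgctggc
Prc1: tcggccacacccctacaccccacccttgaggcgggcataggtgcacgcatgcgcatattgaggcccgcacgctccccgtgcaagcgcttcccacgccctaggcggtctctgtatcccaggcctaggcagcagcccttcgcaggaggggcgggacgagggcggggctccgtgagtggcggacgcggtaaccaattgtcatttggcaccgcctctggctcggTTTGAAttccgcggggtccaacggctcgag

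The E2F motif was searched as TTTGGCGC, TTTCCCGC, TTTGCCGC or TTTCGCGC and the CHR as TTTGAA, both on either strand, from 250 bases before to 50 after each start. A promoter was found for 6492 of the 7909 tested genes. The E2F motif was present in 12 of 34 replication genes with a promoter (35.3%), 6 of 31 repair genes (19.4%), 3 of 44 mitosis genes (6.82%) and 5.19% of all tested genes with one. The CHR was present in 29 of 44 mitosis genes (65.9%), 4 of 34 replication genes (11.8%), 0 of 31 repair genes and 13.9% of all. In the other lists searched it was in 4 of 7 Id and BMP target genes (57.1%), 3 of 24 contractile genes (12.5%) and 0 of 15 clock genes. CCAAT, the motif of NF-Y, was in 72.7% of mitosis and 61.8% of replication genes against 44.1% of all. It was not particular to these lists, being in 80% of clock, 71.4% of Id and BMP target, 61.3% of repair and 58.3% of contractile genes with a promoter. Over the called genes, the E2F motif was in 13.2% of 288 lower and 2.34% of 214 higher genes with a promoter. A match describes these letters in the window and does not show binding.

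Genes of DNA repair, chromatin supply and the G1 phase included fewer called members. Of 42 repair genes 14 fell (33.3%, against 4.56% of all tested genes) and none rose, with a median of -0.39. Apex1, the endonuclease of base excision repair, fell by 0.71 ± 0.13 (limma adjusted p = 0.00725), Rad54l, which acts in homologous recombination, by 1.44 ± 0.32, the mismatch repair protein Msh6 by 0.93 ± 0.21 and Xrcc1, a scaffold of single-strand break repair, by 0.79 ± 0.18. The calls of Apex1 and Rad54l held with each array left out; Msh6 lost its call without 12 h replicate 2, and Xrcc1 without 12 h replicate 2 or 5 (adjusted p up to 0.0569 for both). Of 31 genes of histone and chromatin supply, Hmgb2, Nasp, Hells, Asf1b and Dnmt1 fell. Hells, a chromatin remodeller, was at 3.48, 3.87, 4.31, 4.02 and 4.28 in undifferentiated cells and at 0.62, 1.73, 3.63, 3.21 and 1.45 at 12 h. Ezh1, a Polycomb methyltransferase, rose by 0.54 ± 0.15 (limma adjusted p = 0.0381), a call lost in 8 of 10 fits with an array left out (adjusted p up to 0.102). The number of repair members called was 3 without 12 h replicate 2 and 4 without 12 h replicate 5, and that of chromatin supply 1 and 0.

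In the G1 list 4 of 21 members fell and none rose, with a median of -0.38. These were the E2F family members E2f8 (fall of 1.33 ± 0.30, limma adjusted p = 0.0168) and E2f1 (0.85 ± 0.24), cyclin E1, Ccne1 (0.99 ± 0.25), and Cdkn1a, the CDK inhibitor p21 (0.96 ± 0.26). Ccnd1, cyclin D1, was at 8.11, 8.30, 7.57, 8.30 and 9.16 in undifferentiated cells and at 4.81, 6.29, 8.17, 8.31 and 6.03 at 12 h. Replicates 3 and 4 were at the undifferentiated level and replicates 1, 2 and 5 were below it, and the difference of -1.56 ± 0.59 did not pass (limma adjusted p = 0.108, and 0.0356 with the suffix as a block). Ccnd2 (-0.23 ± 0.45) and the CDK inhibitors Cdkn1b (0.33 ± 0.15) and Cdkn1c (0.71 ± 0.57) did not pass either. With the suffix as a block 10 members were called lower, and without 12 h replicate 2 or 5 none.

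Inhibitors and targets of the ERK pathway had large differences on 3 of 5 arrays. The only call among 11 tested members (9.09%, against 4.56% of all tested genes lower) was Phlda1, a growth factor-induced protein. It fell by 1.42 ± 0.34 (limma adjusted p = 0.0226) and lost its call without undifferentiated replicate 4 or 5 or 12 h replicate 2 or 5 (adjusted p up to 0.0664). The other 10 did not pass, although all 11 differences were below 0 and the median was -1.13. Dusp6, the phosphatase that inactivates ERK, was at 6.47, 7.30, 6.58, 6.95 and 8.15 in undifferentiated cells and at 3.07, 4.89, 7.08, 7.23 and 4.03 at 12 h. Its 12 h replicates 3 and 4 lay inside the undifferentiated range and replicates 1, 2 and 5 below it, and the difference was -1.83 ± 0.70 (limma adjusted p = 0.108, and 0.0376 with the suffix as a block). Etv5, an ERK-induced ETS factor, was at 2.98, 3.85, 3.79, 4.84 and 3.12 against 2.14, 2.29, 3.66, 3.27 and 1.29 (difference -1.18 ± 0.47, limma adjusted p = 0.12, and 0.00297 with the block). The list mean was -1.94, -1.35, -0.05, -0.08 and -1.83 in 12 h replicates 1 to 5 against -0.42 to 0.39 in undifferentiated cells. Its median difference was -1.20 within suffix A, 0.12 within B and -2.01 within C, and 6 members were called lower with the suffix as a block. Spry4 was under the filter on dim genes, from 0.27 to 0.95 in undifferentiated cells and from -0.57 to 0.30 at 12 h.

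Nucleolar genes of ribosome assembly followed the same array order as the ERK list. Of 46 members 6 fell and none rose, with a median of -0.51 and every difference below 0. The members that fell were Gnl3, the nucleolar GTPase nucleostemin (0.86 ± 0.19, limma adjusted p = 0.0164), Nop56 and Gar1 of the RNA-modifying snoRNPs (0.86 ± 0.22 and 0.81 ± 0.20), Utp20, Wdr12 and Polr1c. Gnl3 was at 4.92, 5.03, 5.08, 5.19 and 5.25 in undifferentiated cells and at 3.82, 3.96, 4.76, 4.81 and 3.84 at 12 h. Its 12 h replicates 3 and 4 were nearest to the undifferentiated arrays, and the call was lost without 12 h replicate 2 or 5 (adjusted p up to 0.0549). The list mean was -1.09, -0.71, 0.02, -0.05 and -0.81 in 12 h replicates 1 to 5. With 12 h replicates 3 and 4 averaged 21 members were called lower, with both left out 39, with the suffix as a block 22, and without 12 h replicate 2 or 5 none. In the same order, those fits called 569, 1168, 844, 105 and 103 of all 7909 tested genes lower. No member was called lower without the arrays of suffix C or with the actin ratio as a covariate.

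Immediate early genes and growth factor receptors showed few calls. None of 17 immediate early genes passed, with a median of -0.39. Fos varied within both groups, at 6.84, 5.47, 8.10, 4.86 and 7.43 in undifferentiated cells and 4.91, 7.36, 4.28, 4.77 and 8.44 at 12 h. The difference of Egr1 was -1.08 ± 0.60 (limma adjusted p = 0.268). Among 13 EGF and FGF receptor and adaptor genes 2 rose (15.4%, against 3.3% of all tested genes) and none fell. Fgfr2 rose by 0.99 ± 0.21 (limma adjusted p = 0.0132) and held with each array left out. Fgfr3, an FGF receptor of astrocytes, rose by 0.91 ± 0.24 and lost its call in 6 of 10 such fits (adjusted p up to 0.0815). Egfr was at 5.43, 5.83, 5.91, 5.77 and 5.98 in undifferentiated cells and at 5.97, 4.98, 4.71, 4.66 and 4.64 at 12 h. Every 12 h array but replicate 1 was below the undifferentiated range, and the difference of -0.79 ± 0.24 did not pass (limma adjusted p = 0.0506, and 0.0252 with the suffix as a block). Fgfr1 differed by -0.02 ± 0.22, and none of 4 PDGF ligands and receptors passed, Pdgfra at 1.20 ± 0.57 among them (limma adjusted p = 0.193).

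Some contractile and SRF-driven genes were among the largest rises. Of 26 tested members 6 rose, against 3.3% of all tested genes, Mylk fell and 19 were not called, with a list median of 0.28. Acta2, smooth muscle actin, was at 2.91, 2.49, 2.68, 3.26 and 2.19 in undifferentiated cells and at 2.41, 6.82, 7.12, 7.07 and 6.21 at 12 h. Myl9, a regulatory myosin light chain, was at 3.38, 2.92, 2.37, 2.07 and 2.94 against 3.16, 5.55, 5.70, 5.67 and 5.29. In both genes 12 h replicate 1 was inside the undifferentiated range and the other 12 h arrays were far above it. Myl9 rose 5.06-fold (log2 2.34 ± 0.41, limma adjusted p = 0.00567) and held with each array left out, and Acta2 rose 9.31-fold and lost its call only without 12 h replicate 2 (adjusted p up to 0.0548). Tagln, the actin-binding protein transgelin, was at 2.20, 0.86, 1.69, 0.90 and 0.63 against 0.80, 4.02, 6.45, 6.46 and 3.92. It rose 8.40-fold (limma adjusted p = 0.0461), a call that held only without 12 h replicate 1 (adjusted p up to 0.0981 otherwise).

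Actn1, an actin crosslinker, rose by 1.64 ± 0.38 and lost its call without undifferentiated replicate 5 or 12 h replicate 2 (limma adjusted p up to 0.0603). Pdlim5, a Z-disc adaptor, rose by 0.72 ± 0.17 on the probe set with the highest mean, while another probe set of the gene had the opposite sign; its call was lost without undifferentiated replicate 4 or 12 h replicate 2 or 5 (adjusted p up to 0.0592). The contractile list mean was -0.48, 0.48, 1.11, 1.12 and 0.29 in 12 h replicates 1 to 5, and its median difference was 0.03 within suffix A, 0.70 within B and 0.08 within C. Thus replicates 3 and 4, with the smallest differences of the cell cycle and ERK lists, had the largest of the contractile list. With those arrays averaged 4 members were called higher, without 12 h replicate 1 there were 8, and without 12 h replicate 2 there was 1.

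The promoters of Myl9 and Vcl are shown because they hold a CArG box, the motif to which SRF binds. Vcl, the adhesion protein vinculin, rose by 0.71 ± 0.19 (limma adjusted p = 0.0346) and was chosen for its match. The windows are the 250 bases before the start, chr2:156775214-156775463 and chr14:20929148-20929397, both on the plus strand, with the CArG box in capitals. Searched on both strands as CC, any 6 bases of A or T, then GG, the box was in 6 of 24 genes of the contractile list with a promoter (25%), in 1.77% of all tested genes with one, and in 3.74% of the called higher and 0.694% of the called lower genes.
Myl9: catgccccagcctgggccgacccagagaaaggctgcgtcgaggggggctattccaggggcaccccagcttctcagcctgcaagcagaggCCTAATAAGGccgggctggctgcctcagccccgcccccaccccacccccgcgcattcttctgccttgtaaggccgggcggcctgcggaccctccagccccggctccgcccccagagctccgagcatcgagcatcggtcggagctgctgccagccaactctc
Vcl: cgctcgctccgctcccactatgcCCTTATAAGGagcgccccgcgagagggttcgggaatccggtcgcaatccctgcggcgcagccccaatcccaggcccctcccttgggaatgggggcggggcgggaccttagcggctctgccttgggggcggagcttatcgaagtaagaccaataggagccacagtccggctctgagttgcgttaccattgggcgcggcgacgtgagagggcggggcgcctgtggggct

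The list of YAP, TEAD and their targets, a pathway that responds to attachment, had 2 targets that rose and 2 of the factors that fell. Of its tested members 13.3% were thus higher and 13.3% lower, against 3.3% and 4.56% of all tested genes. F3, tissue factor, rose by 1.29 ± 0.22 (limma adjusted p = 0.00416) and held with each array left out, and Amotl2, an angiomotin, rose by 0.93 ± 0.23. Tead2 fell by 0.87 ± 0.21 and Yap1 itself by 0.61 ± 0.18 (limma adjusted p = 0.022 and 0.0462). Yap1 lost its call in all 10 fits with an array left out (adjusted p up to 0.123), and Amotl2 and Tead2 lost theirs without undifferentiated replicate 4 or 5 or 12 h replicate 2 or 5 (adjusted p up to 0.0673). Ccn2, a matricellular YAP target, was at 0.71, 0.30, 1.35, 0.84 and 1.44 in undifferentiated cells and at -0.05, 3.46, 4.09, 3.84 and 1.72 at 12 h. Replicate 1 was below the undifferentiated range, and the difference of 1.69 ± 0.62 did not pass (limma adjusted p = 0.0978, and 0.0443 with the suffix as a block). The list had 15 tested members. Of 20 tested metallothionein, caveolin and annexin genes 3 rose (15%, against 3.3% of all tested genes), none fell and 17 were not called. The 3 were Cav1, the coat protein of caveolae, and Anxa7 and Anxa5, calcium-dependent membrane binders. They rose by 2.39 ± 0.60, 0.95 ± 0.19 and 0.82 ± 0.24. Cav1 was at 1.85 in 12 h replicate 1, within the undifferentiated range of 1.63 to 2.74, and at 3.95 to 6.07 in the others; its call was lost without undifferentiated replicate 2 or 5 or 12 h replicate 2 (limma adjusted p up to 0.0681). Anxa7 held with each array left out, and Anxa5 lost its call in 8 of 10 such fits (adjusted p up to 0.0892).

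Among Id genes and other BMP and TGF-beta targets, 4 of 12 tested members rose (33.3%, against 3.3% of all tested genes). All 12 had differences above 0, with a median of 0.59, and those called were Id4, Hey1, Id3 and Atoh8, a bHLH factor. Atoh8 lost its call in 9 of 10 fits with an array left out (limma adjusted p up to 0.111), and its 12 h replicate 1 at -0.11 lay within the undifferentiated range. Every undifferentiated level of Atoh8 was under the filter on dim genes. Hey1, a bHLH repressor of the Notch and BMP pathways, rose 2.35-fold (log2 1.23 ± 0.20, limma adjusted p = 0.00408) and held with each array left out. Id3 was at 5.10, 5.36, 4.74, 4.87 and 5.39 in undifferentiated cells and at 4.65, 8.34, 7.09, 7.08 and 7.87 at 12 h. It rose 3.77-fold (limma adjusted p = 0.0302), with replicate 1 below the undifferentiated arrays, and its call was lost in 7 of 10 fits with an array left out (adjusted p up to 0.0863). Id1 had the same shape, at 4.31, 3.70, 4.18, 4.20 and 4.68 against 2.52, 7.37, 6.48, 6.31 and 5.74, and did not pass (difference 1.47 ± 0.60, limma adjusted p = 0.133). Id2 differed by 0.66 ± 0.40. Id4 was higher in replicate 1 as well, and the list mean was -0.09, 1.35, 1.11, 1.09 and 0.88 in 12 h replicates 1 to 5. Without 12 h replicate 1, 6 members were called higher, and without 12 h replicate 2 or 5 there were 2. Among 20 BMP ligands, receptors and Smads, the receptor Bmpr1a rose by 0.80 ± 0.19 (limma adjusted p = 0.02; lost without undifferentiated replicate 4 or 12 h replicate 2 or 5, adjusted p up to 0.0607) while Bmp7 fell.

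**Figure D5:**
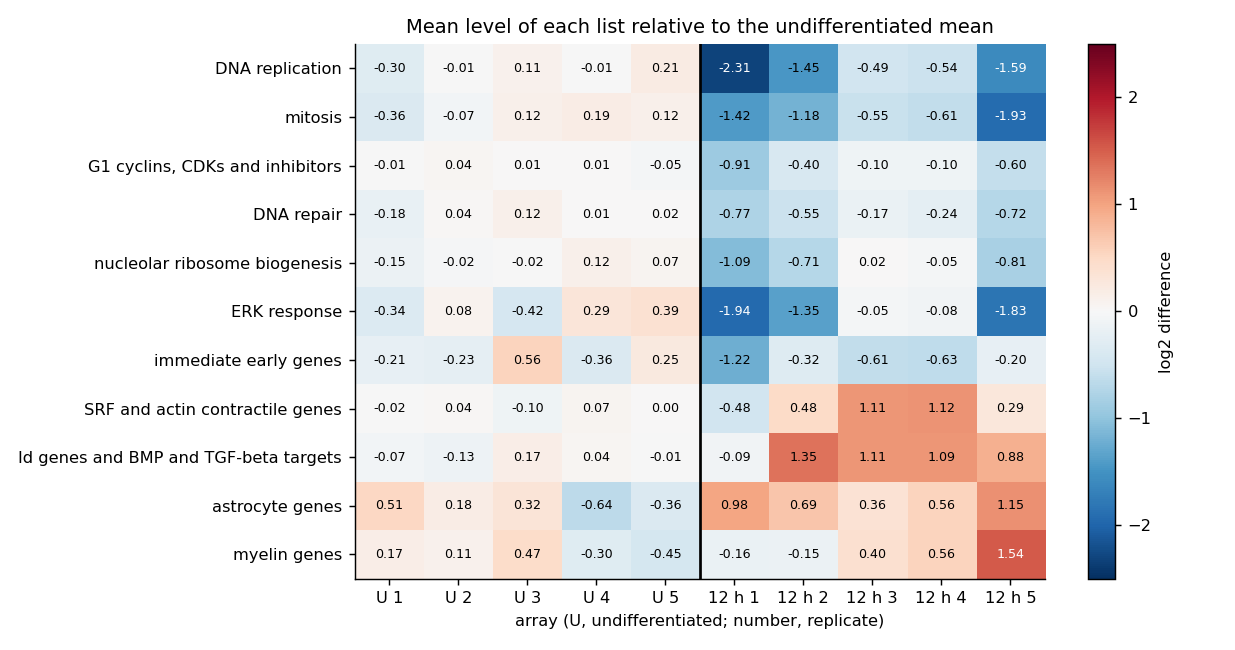
Mean log2 level of the tested members of 11 lists on each of the 10 arrays, relative to the mean of the undifferentiated arrays; rows are lists, columns arrays, red higher and blue lower, with the value in each cell. The replication row is below -0.4 on all 12 h arrays, the ERK row is near 0 on 12 h replicates 3 and 4, the contractile and Id rows are below 0 on 12 h replicate 1, and the myelin row reaches 1.54 on 12 h replicate 5 alone.

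Among corepressors, Tle2 and Tle6 fell, with 2 of 6 members called in each fit that left out 1 of 12 h replicates 1, 2 and 5, the arrays of suffix C or added the actin covariate. Notch pathway genes had 1 call, Hey1, among 25 (4%, against 3.3% of all tested genes higher). The Notch targets Hes5 (0.67 ± 0.35) and Hes1 (-0.77 ± 0.25) did not pass (limma adjusted p = 0.239 and 0.0678, and 0.132 and 0.0388 with the suffix as a block), nor did Notch1 (0.46 ± 0.25). In the Wnt list, of 24 members, the receptor Ror2 and its ligand Wnt5a fell by 0.62 ± 0.13 and 1.01 ± 0.24 (limma adjusted p = 0.0132 and 0.0216). Tcf7l1, a TCF repressor, rose by 0.73 ± 0.22 (limma adjusted p = 0.0494). The Wnt list thus had 8.33% lower and 4.17% higher, against 4.56% and 3.3% of all tested genes. Ror2 held with each array left out, Wnt5a lost its call without undifferentiated replicate 4 or 5 or 12 h replicate 5 (adjusted p up to 0.0569), and Tcf7l1 in 7 of 10 fits (adjusted p up to 0.122). None of 6 Hedgehog pathway genes passed.

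Astrocyte genes leaned higher. Of 28 members 6 rose (Clu, F3, Glul, Id3, Fgfr3 and Aqp4), 21.4% against 3.3% of all tested genes. None fell, and the median was 0.73. Glul, glutamine synthetase, rose by 0.69 ± 0.17 (limma adjusted p = 0.0255). Aqp4, the water channel of astrocyte endfeet, was at 7.19, 7.19, 7.28, 5.20 and 6.16 in undifferentiated cells and at 8.15, 8.51, 7.18, 7.57 and 9.19 at 12 h. Its rise of 1.52 ± 0.44 (limma adjusted p = 0.046) came with a low level in undifferentiated replicates 4 and 5, and its call was lost in 6 of 10 fits with an array left out (adjusted p up to 0.123), that of Glul in 5 of 10 (adjusted p up to 0.0742). Gfap, the astrocyte filament that stem cells of this region also express, was at 5.40, 4.45, 4.44, 1.10 and 2.05 against 5.42, 5.96, 4.49, 5.07 and 7.03. Undifferentiated replicates 4 and 5 were again the lowest, and the difference of 2.10 ± 0.67 did not pass (limma adjusted p = 0.0623, and 0.029 with the suffix as a block). The list mean was -0.64 and -0.36 on those arrays and 0.18 to 0.51 on the other undifferentiated ones, against 0.36 to 1.15 at 12 h. The median difference was 0.61 within suffix A, 0.44 within B and 1.47 within C. With the suffix as a block 12 members were called higher, with 12 h replicates 3 and 4 left out 15, and without 12 h replicate 2 or 5 there were 2. Without the arrays of suffix C 1 member was called higher, and with the actin ratio as a covariate also 1.

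Myelin and oligodendrocyte lineage genes did not pass at 12 h. None of 19 myelin genes was called (15 differences above 0, median 0.56) and none of 15 lineage genes. Mbp, myelin basic protein, was at 4.43, 5.76, 6.56, 5.39 and 5.02 in undifferentiated cells and at 2.37, 4.75, 7.02, 7.51 and 9.64 at 12 h. Both the lowest and the highest of the 10 arrays were 12 h arrays, replicates 1 and 5, and the difference was 0.82 ± 0.98 (limma adjusted p = 0.638). The lineage factor Sox10 was at 0.80 to 3.49 in undifferentiated cells and at 2.30 to 3.07 in 12 h replicates 1 to 4, and 12 h replicate 5 stood at 5.22. The myelin list's median difference was -0.30 within suffix A, 0.40 within B and 1.90 within C. Olig1 (-0.13 ± 0.28) and Olig2 (-0.25 ± 0.29) did not pass (limma adjusted p = 0.81 and 0.624).

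Neuronal genes gave 3 rises of 22 (13.6%, against 3.3% of all tested genes) and no fall. Reln, the secreted guidance protein reelin, rose 2.78-fold (log2 1.48 ± 0.27, limma adjusted p = 0.00725), the adhesion molecule Ncam1 1.84-fold and Scg2 3.51-fold, each held with every array left out. Dcx (0.53 ± 0.36), Tubb3 (0.66 ± 0.21) and Dlx2 (0.67 ± 0.27), marks of neuroblasts and new neurons, did not pass (limma adjusted p = 0.37, 0.0627 and 0.127). With the suffix as a block Tubb3 and Dlx2 passed (adjusted p = 0.00991 and 0.00409) and Dcx did not (0.277). Among 18 stem cell genes the RNA-binding protein Msi1 rose by 0.91 ± 0.22 (limma adjusted p = 0.023; lost without undifferentiated replicate 5 or 12 h replicate 2 or 5, adjusted p up to 0.0677). Nes, nestin, was at 5.99, 6.52, 6.12, 6.68 and 6.38 in undifferentiated cells and at 4.86, 5.01, 6.46, 6.30 and 4.30 at 12 h. Replicates 3 and 4 were at the undifferentiated level, and the difference of -0.95 ± 0.37 did not pass (limma adjusted p = 0.114, and 0.0213 with the suffix as a block). Sox2 differed by 0.61 ± 0.24 (limma adjusted p = 0.115, and 0.00716 with the suffix as a block). Of 12 filament and lamin genes only Lmnb1, lamin B1, was called (8.33%, against 4.56% of all tested genes lower). It fell by 1.11 ± 0.31 (limma adjusted p = 0.0383), a call lost in 8 of 10 fits with an array left out (adjusted p up to 0.101).

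Of 15 genes of motile cilia and ependyma, 4 rose (26.7%) and 1 fell (6.67%), against 3.3% and 4.56% of all tested genes. Rfx2 and Foxj1, transcription factors of the motile cilium, rose by 0.96 ± 0.22 and 0.96 ± 0.25, and Ift81 and Bbs2, of transport in cilia, by 0.60 ± 0.14 and 0.69 ± 0.18, while Mns1 fell by 0.76 ± 0.19. Every undifferentiated level of Rfx2 was under the filter on dim genes. Foxj1 was at 2.52, 2.40, 2.64, 2.10 and 2.27 in undifferentiated cells and at 2.65, 3.85, 3.21, 3.30 and 3.71 at 12 h, with replicate 1 barely above the undifferentiated range. These calls were lost in 2 to 6 of the 10 fits with an array left out, without 12 h replicate 2 in each case (limma adjusted p up to 0.0874). Most markers of other cell types were at or under the filter on dim genes: all 16 microglia markers on the array were at or under the filter in all 10 arrays, as were 10 of 11 endothelial, 9 of 11 pericyte and fibroblast and 12 of 14 leukocyte markers. The highest level of any was 3.65, among pericyte and fibroblast markers, of which 2 were tested and none was called. Summed on the linear scale, the microglia markers were at 12.8 to 13.7 in undifferentiated and 12.7 to 13.7 in 12 h cells. In the same order, the sums were 8.90 to 9.58 and 8.96 to 10.04 for endothelium. They were 15.3 to 20.8 and 11.2 to 18.5 for pericytes and fibroblasts, and 11.4 to 12.2 and 11.6 to 12.2 for leukocytes.

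Genes of adhesion and the extracellular matrix rose in part. Timp2, an inhibitor of matrix metalloproteases, was at 4.68, 4.34, 4.54, 3.88 and 4.14 in undifferentiated cells and at 5.68, 5.60, 5.59, 5.72 and 5.65 at 12 h. The 12 h arrays lay within 0.2 of each other, and Timp2 rose 2.52-fold (log2 1.33 ± 0.16, limma adjusted p = 0.000478). Of 36 matrix genes Ogn, Ncan and Sparc rose (8.33%) and Lama1 fell (2.78%), against 3.3% and 4.56% of all tested genes. Ncan, the brain proteoglycan neurocan, rose 2.07-fold, Sparc, a collagen-binding matricellular protein, 2.28-fold, and the laminin chain Lama1 fell by 0.76 ± 0.16. Among 20 cadherin and junction genes, N-cadherin, Cdh2, rose by 0.75 ± 0.16 (limma adjusted p = 0.0132), Cdh11 by 0.71 ± 0.16 and Cdh6 by 0.64 ± 0.15. Of 5 integrin subunits the laminin-binding chains Itga7 and Itga6 rose by 1.04 ± 0.28 and 0.61 ± 0.17. The calls of Timp2, Ogn, Ncan, Sparc, Lama1 and Cdh2 held with each array left out. Those of the integrins were lost in 7 of 10 fits each, Cdh11 without undifferentiated replicate 4 or 5 or 12 h replicate 2 or 5, and Cdh6 without undifferentiated replicate 5 or 12 h replicate 2 (limma adjusted p up to 0.101).

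Receptors, channels and transporters added single members to their lists, beside 3.3% of all tested genes higher and 4.56% lower. Nrp1, a receptor for semaphorins and VEGF, was the one called gene among 28 of axon guidance (3.57%), a share near that of all tested genes. It rose by 0.82 ± 0.16 (limma adjusted p = 0.00933). In the list of 27 glial channels and transporters the creatine transporter Slc6a8 rose by 0.84 ± 0.14 (limma adjusted p = 0.00416), the potassium channel Kcnk2 by 1.54 ± 0.33, and Aqp4. The calls of Nrp1, Slc6a8 and Kcnk2 held with each array left out. Igfbp4 was the one called gene among 10 of the insulin-like growth factor list, in which Igfbp5 differed by 0.56 ± 0.47 (limma adjusted p = 0.474). Sgce, an imprinted sarcoglycan, was the one called among 11 imprinted genes and rose by 0.70 ± 0.16 (limma adjusted p = 0.0164; lost without 12 h replicate 2, adjusted p = 0.0548).

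Dbp and Per3, both driven by the circadian clock, rose (2.20 ± 0.29 and 0.83 ± 0.18) and held with each array left out, while Per1 differed by -0.11 ± 0.22 and Wee1, a kinase that restrains mitosis and is under clock control, fell by 1.24 ± 0.34. Of 19 clock genes, 2 rose (10.5%) and 1 fell (5.26%), against 3.3% and 4.56% of all tested genes. Wee1 was at 1.81, 2.43, 3.56, 3.44 and 1.95 at 12 h, in the array order of the replication genes, and lost its call in 7 of 10 fits (limma adjusted p up to 0.106). Of 37 FoxO, quiescence and autophagy genes 4 rose, 10.8% against 3.3% of all tested genes. They were Retreg1, the autophagy protein Wipi1 (1.07 ± 0.25), Bnip3, a mitophagy receptor (0.78 ± 0.21), and Txnip, an inhibitor of thioredoxin and glucose uptake. Txnip was at 0.64, 0.42, 0.76, 0.38 and 0.60 in undifferentiated cells and at 3.49, 1.84, 0.93, 0.85 and 2.36 at 12 h. All 12 h arrays were above, replicates 3 and 4 by least, and the rise of 1.33 ± 0.37 (limma adjusted p = 0.0383) kept its call only without 12 h replicate 3 or 4 (adjusted p up to 0.102 otherwise). Trib2, a pseudokinase, fell by 0.66 ± 0.18. The calls of Wipi1, Bnip3 and Trib2 were lost in 4, 5 and 5 of 10 fits, without 12 h replicate 2 or 5 among them (adjusted p up to 0.101). With 12 h replicates 3 and 4 left out, 14 members of this list were called higher.

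Metabolic genes gave scattered calls. Slc2a3, a neuronal-type glucose transporter, rose 2.15-fold (log2 1.10 ± 0.24, limma adjusted p = 0.0147) and held with each array left out. The glycolytic genes Pfkm and Pfkfb3 rose by 0.69 ± 0.18 and 0.82 ± 0.23, and the peptide hormone Adm, adrenomedullin, fell by 2.30 ± 0.60. Adm was at 2.96, 3.66, 3.04, 5.36 and 5.24 in undifferentiated cells and at 1.03, 1.12, 3.25, 3.22 and 0.13 at 12 h, so the groups overlapped, and its call was lost in 6 of 10 fits (limma adjusted p up to 0.0848). In all, 4 of 26 glycolysis and hypoxia genes rose (15.4%) and 1 fell (3.85%), against 3.3% and 4.56% of all tested genes. Of 14 fatty acid synthesis genes 7.14% were higher and 7.14% lower. Fasn, fatty acid synthase, fell by 0.70 ± 0.15 (limma adjusted p = 0.0132) with no overlap, and Fads3 rose by 0.81 ± 0.18. The undifferentiated mean of Fads3, 0.11, was under the filter on dim genes (log2 0.512), so Fads3 was tested only through its levels on other arrays. Its 12 h replicate 1 at 0.37 lay within the undifferentiated range of -0.14 to 0.60. The call held in 9 of 10 fits with an array left out (limma adjusted p up to 0.0587). Of 19 cholesterol genes Dhcr7 and Nsdhl fell (10.5%, against 4.56% of all tested genes). The list median was -0.46 within suffix A, -0.67 within B and 0.31 within C, and Sqle differed by -0.31 ± 0.20. The calls of Dhcr7 and Nsdhl were lost in 7 and 9 of 10 fits, and those of Pfkm and Pfkfb3 in 4 and 6 (adjusted p up to 0.121).

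Chaperones and housekeeping groups differed in kind. Hspb8 and Hspb1, small heat shock proteins, and Hspa2 rose by 2.49 ± 0.60, 0.58 ± 0.13 and 0.82 ± 0.22, and the mitochondrial cochaperonin Hspe1 fell by 0.95 ± 0.21. Of 31 tested chaperone genes 9.68% were thus higher and 3.23% lower, against 3.3% and 4.56% of all tested genes. Hspb8 was at 2.41, 2.53, 2.80, 2.25 and 1.85 in undifferentiated cells and at 2.16, 7.06, 4.53, 4.67 and 5.88 at 12 h. Replicate 1 was inside the undifferentiated range, and the call was lost without undifferentiated replicate 4 or 5 or 12 h replicate 2 or 5 (limma adjusted p up to 0.0677). Hspa2 lost its call in 7 of 10 such fits (adjusted p up to 0.0934) and Hspb1 without 12 h replicate 2 (0.0609), the fit in which no chaperone was called higher, while Hspe1 held in all. Of 46 splicing genes 6 fell and none rose, led by U2af1 (0.73 ± 0.16), Snrpb (0.69 ± 0.16) and Lsm3 (0.81 ± 0.19), and without 12 h replicate 2 or 5 there was 1. None passed among 35 cytosolic ribosomal proteins (median -0.014), 61 oxidative phosphorylation genes (-0.10), 35 proteasome subunits (-0.10) and 45 genes of the unfolded protein response (0.019), Hspa5 at 0.09 ± 0.18 among the last. The p53 list had 2 falls among 22 (9.09%, against 4.56% of all tested genes), Gtse1 and Cdkn1a, both also cell cycle genes. Sort1, the sorting receptor sortilin, was the one called of 42 lysosomal genes (2.38%, against 3.3% of all tested genes higher). It rose by 0.67 ± 0.16 (limma adjusted p = 0.0232) and lost its call without undifferentiated replicate 5 or 12 h replicate 2 or 5 (adjusted p up to 0.0673).

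Outside the lists, the 12 further called genes with the smallest p-values, leaving out provisional symbols, each held with every array left out. The genes with provisional symbols that would have ranked among them, Gm13889 and 2810025M15Rik, fell by 1.64 and 1.13 (limma adjusted p = 0.00124 and 0.00364). Gfpt2, which starts the hexosamine pathway, was at 3.02, 2.93, 2.47, 2.74 and 1.82 in undifferentiated cells and at 1.20, 0.86, 1.13, 1.22 and 0.98 at 12 h, a fall of 1.52 ± 0.20 (limma adjusted p = 0.00121). Spsb4, a SOCS box protein, fell by 1.59 ± 0.26, the histone cochaperone Dnajc9 by 1.23 ± 0.19 and the LIM protein Lmcd1 by 1.18 ± 0.19. Sh3gl2, the endocytic protein endophilin A1, was at 3.28, 3.30, 2.98, 2.86 and 3.11 against 2.12, 2.31, 2.33, 2.16 and 2.06. It fell by 0.91 ± 0.14 (limma adjusted p = 0.00297), with the 12 h arrays close together. Mrps30 of the mitochondrial ribosome, the potassium channel subunit Kcnab2, the splicing-related Cherp and Nsmce4a, a subunit of the SMC5/6 complex, fell by 0.81 ± 0.13, 0.74 ± 0.12, 0.73 ± 0.12 and 0.69 ± 0.11. Limch1, which binds non-muscle myosin, and the transcriptional repressor Nacc2 rose by 1.22 ± 0.20 and 1.21 ± 0.19. Fah, the last enzyme of tyrosine breakdown, was at 0.30 to 0.46 in undifferentiated cells and at 1.17, 1.02, 1.05, 1.08 and 1.58 at 12 h, and rose by 0.79 ± 0.12 (limma adjusted p = 0.00297). Those undifferentiated levels were all under the filter on dim genes.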

How the data were processed

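Total RNA was labelled with biotin, with each sample hybridised to its own Affymetrix array, per the labels' protocols. The authors deposited a table of processed values by probe set; per the submitters' processing notes the tool was MAS5, with settings not given in the sources used here. These deposited values were read as log10, since those of the hybridisation spike-ins had a slope of 1.07 ± 0.0655 (mean and SD, 15 arrays) against log10 concentration; they were multiplied by 3.32 to log2 and not normalised further. Array medians were 0.409 and 0.406 on the log10 scale in undifferentiated and 12 h cells. A single gene symbol was given for 20380 of the 22626 probe sets that are not controls; the probe set with the highest mean was taken per gene, and 7909 of 12393 genes lay above the 40th percentile (log2 0.512). Of 222 called genes with several probe sets, 5 had opposite signs.

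A limma fit (version 3.58.1, R 4.3.3) of group means took all 15 arrays, with a variance trend and Benjamini-Hochberg adjustment; the fit was tested on simulated data. Members and the 51 gene lists were chosen with earlier results of these data known. Named genes were, of the called genes without overlap between groups, the 12 that rose and the 12 that fell most, up to 5 called members per list, defining genes, and 12 further called genes with the smallest p, leaving out provisional symbols; some are not reported here.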

Additional observations from a re-analysis of the deposited data

Results flagged for a closer look

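Among 434 sets of 5 values examined (list means and named genes in each group), 24 had 1 array far from the other 4, and chance alone flags about 1 in 20. By list mean relative to undifferentiated cells, 12 h replicate 1 was low for proteasome genes (-0.42) and chaperones (-0.35) and high for BMP ligands, receptors and Smads (0.23) and axon guidance (0.57). Undifferentiated replicate 1 was low for histone and chromatin supply (-0.16) and high for metallothioneins, caveolins and annexins (0.43), undifferentiated replicate 3 was high for YAP and TEAD targets (0.29), and undifferentiated replicate 5 low for FoxO, quiescence and autophagy genes (-0.22).

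Among single genes, 12 h replicate 1 stood low for Myl9 (log2 level 3.16), Acta2 (2.41), Ccnd2 (6.65), Olig2 (4.93) and Nsmce4a (4.48) and high for Egfr (5.97). The 12 h replicate 5 stood low for Igfbp4 (2.94) and high for Sox10 (5.22) and Fah (1.58), and 12 h replicate 2 high for Nsdhl (5.84). Undifferentiated replicate 1 was low for Plk4 (3.93), Msh6 (4.05), Reln (2.31) and Bbs2 (1.34), undifferentiated replicate 3 high for Cdh11 (5.59) and undifferentiated replicate 5 high for Hes1 (3.04).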

How the results depend on the processing

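The 28 alternatives included 2 chosen after seeing the data, the suffix block combined with quantile normalisation and with 12 h replicates 3 and 4 averaged. Relative to 261 genes higher and 361 lower at 12 h, counts within 1.5 times came from median centring, from no filter, a stricter filter or a pseudocount, from the mean of probe sets and from a fit without a variance trend. Groups by file codes gave 0 and 0, and a fit on only the 10 arrays gave 168 and 236. Quantile normalisation gave 448 higher, the suffix block 632 and 844, the suffix as a random block 630 and 826, quantile normalisation with the suffix block 889 and 827, and the suffix block with 12 h replicates 3 and 4 averaged 561 and 846. Averaging those arrays alone gave 569 lower, and leaving both out gave 752 and 1168, with 2256 genes whose groups do not overlap against 645. Leaving out suffix C gave 35 and 35, and with the actin 3'/5' covariate 120 and 50. Leaving out single arrays gave 69 to 356 higher, 103 to 649 lower and 685 to 978 without overlap. Consecutive title codes can be read as 5 pairs of an undifferentiated and a 12 h array, with correlated deviations of 0.137, 0.132, -0.0944, 0.300 and 0.128; since pair 3 was not over 0.1, the pairing is not established; with these pairs as a replicate block, 121 genes were higher and 258 lower. The cause of these changes was not tested, except that fewer samples or genes enter some fits. Of 136 named genes with a call, none changed sign except by file codes, where 57 did, with 0 called. Their differences by file codes were Retreg1 (-0.21), Scg2 (-0.52), Ogn (-0.078), Sorl1 (-0.037), Islr (-0.60), Clu (-0.21), Dhrs1 (-0.084), Ahnak (-0.12), Tle6 (0.16), Mylk (0.10), Tle2 (0.29), Fgfr2 (-0.0035), Fgfr3 (-0.33), Cdkn1a (0.32), Gins4 (0.054), Mcm7 (0.066), Apex1 (0.18), Xrcc1 (0.063), Ezh1 (-0.024), Snrpb (0.13), Sf3a3 (0.11), Dhcr7 (0.13), Nsdhl (0.086), Fasn (0.13), Actn1 (-0.13), F3 (-0.52), Tead2 (0.029), Amotl2 (-0.10), Yap1 (0.17), Wnt5a (0.12), Tcf7l1 (-0.071), Glul (-0.17), Per3 (-0.028), Wipi1 (-0.093), Txnip (-0.14), Slc2a3 (-0.074), Pfkm (-0.14), Pfkfb3 (-0.24), Hspe1 (0.16), Sort1 (-0.0048), Itga7 (-0.25), Itga6 (-0.079), Sparc (-0.29), Timp2 (-0.24), Cdh2 (-0.0069), Cdh11 (-0.21), Cdh6 (-0.0090), Anxa7 (-0.11), Anxa5 (-0.12), Sgce (-0.075), Kcnk2 (-0.14), Pcna (0.086), Tagln (-0.64), Nsmce4a (0.052), Nacc2 (-0.28), Cherp (0.12) and Kcnab2 (0.11). The median shift over tested genes was 0.0045 as deposited, 0.033 after quantile normalisation and 0.012 after centring. The number of arrays and the unknown offset of the deposited values limit precision for dim genes.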
